A study of Homo sapiens with 32 samples.

Results

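Vehicle-treated PC-3 cells were compared between 48 h and 24 h of culture, over all genes and with no compound present. PC-3 is an established human prostate adenocarcinoma cell line that grows as an adherent monolayer. The members were chosen by their labels alone: the 3 vehicle arrays taken after 48 h and the 3 taken after 24 h that belong to the experiment with 4-Hydro peroxy cyclophosphamide, so 6 of the 32 arrays of the series. The study description calls these flasks vehicle controls, the array labels call them untreated, and the vehicle itself is not named in either. In all groups the cells were grown in flasks in RPMI-1640 with fetal bovine serum, and neither source says whether the medium was changed or how dense the cells were at harvest. Other groups of the same experiment used below were cells under 4-Hydro peroxy cyclophosphamide, labelled active, at 10 h (2 arrays), 24 h (2) and 48 h (3), and vehicle cells at 10 h (3). Vehicle cells of a separate experiment, run beside cyclophosphamide, labelled inactive, gave 8 arrays, 3 at 10 h, another 3 at 24 h and 2 at 48 h. Cells under cyclophosphamide enter only by levels on their 24 h arrays (3).

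Sterol supply is sensed in the endoplasmic reticulum, where INSIG proteins hold the SREBP transcription factors back while cholesterol is plentiful. When sterols fall, SREBP is released and turns on the genes of cholesterol and fatty acid synthesis. PC-3 cells are also known to secrete interleukin 6 and chemokines of the CXC family under NF-kB control, and to express contractile genes of the serum response factor (SRF) pathway that vary with cell shape and spreading.

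Levels are log2 intensities after background correction and quantile normalization, and every change is the 48 h mean minus the 24 h mean on that log2 scale unless another comparison is named. The number of arrays, 3 in each group, limits the precision. The labels do not say whether arrays of a group came from separate flasks, and the p-values rest on array-to-array spread that could be technical alone. The upper quartile of raw intensity lay between 454.8 and 542.9 on the 48 h arrays and between 430.9 and 592.4 on the 24 h arrays, and levels on any 2 of the 6 arrays correlated at 0.989 to 0.996 over genes. The epithelial markers EPCAM, KRT8, KRT18 and KRT19 stood between the 92.1st and the 98.3rd percentile of all probes, and KRT7 at the 80.2nd. The E-cadherin gene CDH1 stood at the 27.2nd and was removed as a dim probe. Among prostate luminal markers TMPRSS2 passed, and KLK3, FOLH1 and ACP3 did not. Of markers of other cell types, 1 of 8 fibroblast, 3 of 5 leukocyte and 1 of 4 endothelial genes passed. These were COL1A1 (56.8th percentile), CD68 (81.1st), PTPRC (45.2nd), LYZ (40.3rd) and PECAM1 (55.05th). Among those below the filter were COL1A2, COL3A1, CD3E, CDH5 and VWF. In such bulk RNA, fewer cells that express a gene and less of its RNA in every cell cannot be told apart.

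Between the times 294 of 10598 genes (2.77%) changed with an adjusted p under 0.05 by limma, a moderated linear model, with Benjamini-Hochberg adjustment over all genes. Of these, 164 (1.55%) were higher at 48 h and 130 (1.23%) were lower. The changes were small. Only 2 higher and 2 lower genes moved by at least 1 log2 unit, 211 of the 294 moved by less than 0.5, and the median was 0.44 for higher and -0.39 for lower genes. In 292 of the 294 all 3 arrays at 48 h lay on one side of all 3 at 24 h, against 2440 genes (23%) over the whole table. The median change over all genes was -0.000717. The count moved with the spread estimate, the scaling, the filter and single arrays: it was 96 with median scaling, 160 with no filter on dim probes and 520 with the title-letter run as a replicate block. With 1 estimate shared by all 32 arrays of both experiments only CXCL5 was called, and without 48 h replicate 1, 24 h replicate 2 or 24 h replicate 3 the counts were 84, 158 and 134.

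**Figure D1:**
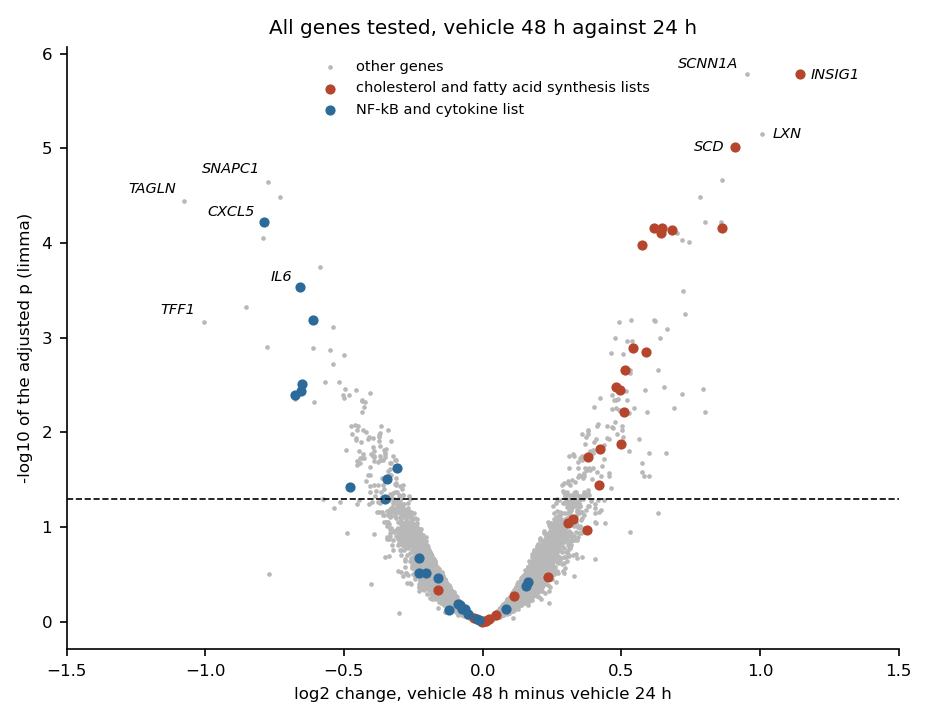
Change of each of 10598 genes (x axis, log2, vehicle 48 h minus vehicle 24 h) against the -log10 of its limma adjusted p (y axis), with a dashed line at an adjusted p of 0.05. Red points are 31 genes of the cholesterol and fatty acid synthesis lists, blue points 25 of the NF-kB and cytokine list, and grey points all others. The called lipid genes all lie on the right and the called cytokine genes all lie on the left.

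The gene with the largest rise was INSIG1, which encodes the sterol-sensing retention protein that holds SREBP in the endoplasmic reticulum and is itself a target of SREBP. Its level was 10.14, 9.94 and 9.97 on the 48 h arrays, against 9.14, 8.59 and 8.89 on the 24 h arrays. No 48 h array overlapped the 24 h arrays (change 1.14, SE 0.11, a 2.21-fold rise, limma adjusted p = 1.66e-06). A 2nd probe of INSIG1 changed by 0.62. LXN, which encodes latexin, a carboxypeptidase inhibitor, read 10.54, 10.47 and 10.72 at 48 h, against 9.66, 9.45 and 9.60 at 24 h, with no overlap. It rose 2.01-fold (change 1.01, SE 0.10, limma adjusted p = 7e-06). SCNN1A, the alpha subunit of the epithelial sodium channel, read 8.36, 8.35 and 8.63 at 48 h, against 7.62, 7.35 and 7.50 at 24 h. The groups again lay apart (change 0.95, SE 0.09, limma adjusted p = 1.66e-06).

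SCD, the desaturase that makes oleate from stearate, was among the brightest genes named here and read 12.33, 12.13 and 11.95 at 48 h, against 11.35, 11.06 and 11.27 at 24 h (change 0.91, SE 0.10, limma adjusted p = 9.65e-06). SREBF1, which encodes SREBP1, read 8.64, 8.61 and 8.34 at 48 h, against 7.79, 7.75 and 7.47 at 24 h (change 0.86, SE 0.11, limma adjusted p = 6.88e-05). In both genes every 48 h array exceeded every 24 h array. ABCA1, the transporter that exports cholesterol to apolipoprotein A-I, read 8.91, 8.64 and 8.81 at 48 h, against 8.002, 7.93 and 7.84 at 24 h (change 0.86, SE 0.10, limma adjusted p = 2.17e-05). The cholesterol exporter thus rose alongside sterol synthesis genes. CCNA1, the A-type cyclin best known from male germ cells, read 10.13, 10.04 and 9.85 at 48 h, against 9.19, 9.14 and 9.11 at 24 h (change 0.86, SE 0.11, limma adjusted p = 6.03e-05). No array broke the order for CCNA1 either.

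The other 8 of the 15 genes with the largest rises changed by 0.72 to 0.80. They were RDH10, a retinol dehydrogenase of retinoic acid synthesis, C9orf152, NOX5, a calcium-activated NADPH oxidase, FGFBP1, a secreted carrier of fibroblast growth factors, KRT15, a keratin of basal epithelium, PHACTR3, a phosphatase and actin regulator, HAS3, a hyaluronan synthase, and SPRY1, a feedback inhibitor of growth factor signalling. RDH10 was the least secure, at 10.73 to 11.60 on the 48 h arrays, against 10.10 to 10.58 on the 24 h arrays (change 0.80, SE 0.16, limma adjusted p = 0.00612). Without 48 h replicate 1 its adjusted p was 0.0693, and without 24 h replicate 3 it was 0.0535. HAS3 rested on its brighter probe (0.72), since a 2nd probe read -0.04.

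**Figure D2:**
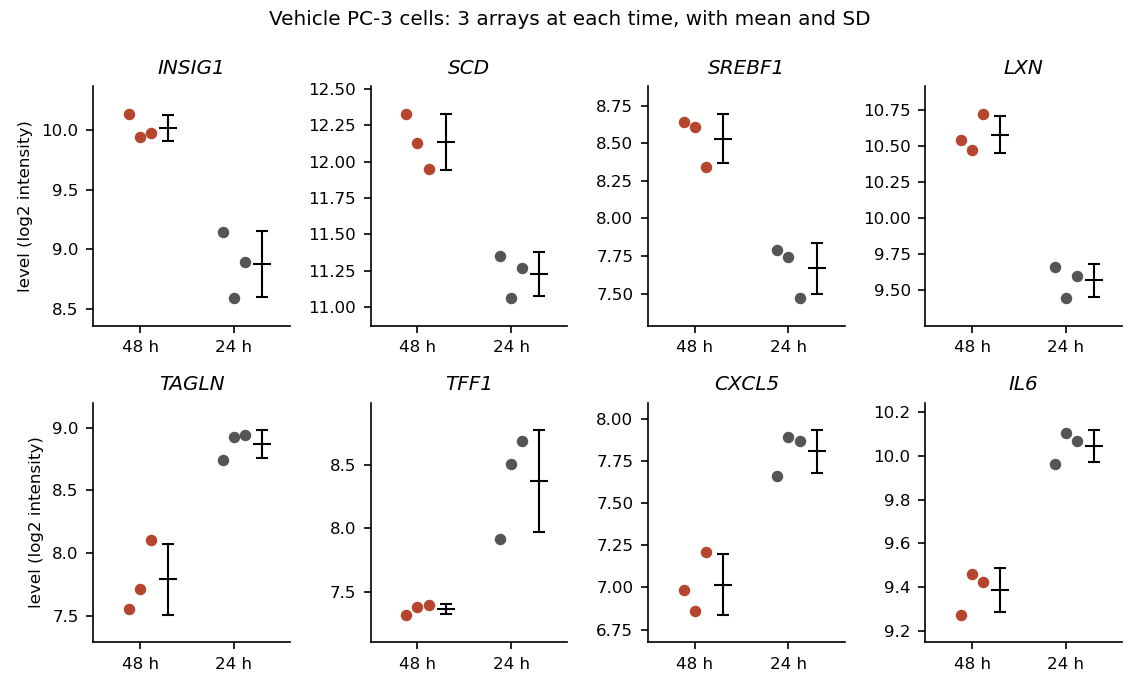
Levels (y axis, log2 intensity) of 8 genes on the 3 vehicle arrays at 48 h (red points) and the 3 at 24 h (grey points), with the mean and SD of each group beside its points. INSIG1, SCD, SREBF1 and LXN are higher at 48 h and TAGLN, TFF1, CXCL5 and IL6 are lower, and the groups do not overlap in any of the 8.

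Genes of cholesterol synthesis were mostly higher at 48 h. Of 19 list members tested, 13 were higher (against 1.55% of all genes), 0 were lower and 6 did not pass the test, and the list's median change was 0.50, against -0.000717 over all genes. The called genes ran from the first steps of the pathway to the last. At its start, ACAT2, which joins acetyl-CoA units in the cytosol, read 11.47, 11.37 and 11.34 at 48 h, against 10.90, 10.66 and 10.77 at 24 h (change 0.62, SE 0.08, limma adjusted p = 6.88e-05). HMGCS1, the HMG-CoA synthase, read 10.54, 10.32 and 10.29 at 48 h, against 9.81, 9.70 and 9.70 at 24 h (change 0.65, SE 0.08, limma adjusted p = 6.88e-05). Neither gene showed any overlap.

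In the mevalonate branch, MVK, the mevalonate kinase, changed by 0.51, MVD, which decarboxylates mevalonate diphosphate, by 0.68, and IDI1, which isomerises isopentenyl diphosphate, by 0.42. MVD had the largest change of the enzymes, at 8.31, 8.37 and 8.32 on the 48 h arrays, against 7.71, 7.46 and 7.78 on the 24 h arrays (SE 0.09, limma adjusted p = 7.29e-05). In the sterol branch, SQLE, which oxidises squalene and limits flux, changed by 0.50, LSS, which closes the ring to lanosterol, by 0.42, TM7SF2, a sterol reductase, by 0.50, MSMO1, a methyl sterol oxidase, by 0.64, SC5D, a sterol desaturase, by 0.38, and DHCR7, which makes cholesterol in the last step, by 0.58. SREBF2, which encodes the SREBP that chiefly drives this pathway, changed by 0.59 (SE 0.10, limma adjusted p = 0.00141). The largest limma adjusted p among these called genes was 0.0356, for IDI1. INSIG1, ACAT2, HMGCS1 and MVD are the members that the rule for named genes picks, and the others were singled out after their values were seen.

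The 6 members that did not pass the test were NSDHL (change 0.31, limma adjusted p = 0.0902), HSD17B7 (0.23), CYP51A1 (0.05), PMVK (0.02), EBP (0.01) and FDPS (-0.000776). The last 4 lay within 0.05 of no change and code for enzymes that sit between others that rose. The number of higher members was 9 without 48 h replicate 1, and it was 0 where the spread was shared by all 32 arrays. In vehicle cells of the separate experiment, described below, 14 of the 19 members had a negative sign.

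The MSMO1 promoter is shown because the called members of the list often hold the same short element. SREBP acts together with NF-Y, which binds CCAAT boxes, and the box reads ATTGGC or, on the other strand, GCCAAT. The 250 bases before the start are given 5′ to 3′ as RefSeq lists them in GRCh38.p14, with these elements in capitals.
MSMO1 (chr4:165327419-165327668, plus strand): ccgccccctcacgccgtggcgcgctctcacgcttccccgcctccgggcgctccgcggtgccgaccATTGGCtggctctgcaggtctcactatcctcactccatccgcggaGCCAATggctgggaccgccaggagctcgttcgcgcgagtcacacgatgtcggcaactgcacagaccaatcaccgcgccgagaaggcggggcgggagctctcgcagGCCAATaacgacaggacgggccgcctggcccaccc
In MSMO1 the elements begin at positions -185, -140 and -35 from the start. The letters occur on either strand in 8 of the 11 called members that have a RefSeq window of 250 bases before to 50 after the start, in 3 of the 6 members not called, and in 20.16% of the 8810 tested genes with such a window. A classical sterol regulatory element, TCACNCCAC, was found in 1 of the 11, in SREBF2, against 1.04% of all windows. A match is a run of letters and was not tested for binding.

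Fatty acid synthesis moved in part. Of 12 list members, 5 were higher (against 1.55% of all genes) and 0 lower, with a median of 0.35. Beside SCD and SREBF1, the called genes were ACSS2, which activates acetate (change 0.54, SE 0.09, limma adjusted p = 0.0013), FADS1, the delta-5 desaturase (0.51), and LPIN1, a phosphatidate phosphatase of triglyceride synthesis (0.48). The enzymes that build the chain itself did not pass. FASN, the fatty acid synthase, changed by 0.37 (SE 0.12, limma adjusted p = 0.107), ACLY by 0.11 (limma adjusted p = 0.531) and ACACA by -0.00 (95% confidence interval -0.18 to 0.17). FASN arrays did not overlap, at 12.27, 12.24 and 12.46 at 48 h, against 11.89, 11.88 and 12.06 at 24 h. Desaturases and regulators were thus called and the chain-building enzymes were not, although the difference between these enzymes was not tested.

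The gene with the largest fall was TAGLN, which encodes transgelin, an actin-binding protein of smooth muscle and a target of SRF. It read 7.56, 7.72 and 8.11 at 48 h, against 8.74, 8.92 and 8.94 at 24 h. Every 48 h array lay below every 24 h array (change -1.08, SE 0.13, limma adjusted p = 3.6e-05). TFF1, a secreted trefoil peptide of mucosal epithelium, read 7.32, 7.38 and 7.398 at 48 h, against 7.92, 8.51 and 8.69 at 24 h (change -1.01, SE 0.16, limma adjusted p = 0.000683). The 48 h arrays lay close together, while the 24 h arrays were spread more widely. TUBA4A, an alpha-tubulin, read 7.52, 7.29 and 7.44 at 48 h, against 8.18, 8.58 and 8.05 at 24 h (change -0.85, SE 0.13, limma adjusted p = 0.000474). SCG5, a neuroendocrine chaperone of prohormone convertase 2, read 9.35, 9.13 and 9.33 at 48 h, against 10.01, 10.05 and 10.12 at 24 h (change -0.79, SE 0.11, limma adjusted p = 8.78e-05). SNAPC1, a subunit of the complex that activates transcription of small nuclear RNA genes, changed by -0.77 (SE 0.09, limma adjusted p = 2.26e-05). None of these genes overlapped between the groups. The remaining genes of the 15 with the largest falls were DAW1, an assembly factor of ciliary dynein arms (-0.68), ADM, the vasodilator peptide adrenomedullin (-0.61), and members of the lists described next.

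Of 25 members of the NF-kB and cytokine list, 9 were lower (against 1.23% of all genes), 0 were higher and 16 did not pass, with a median of -0.20. The neutrophil-attracting CXC chemokines fell together. CXCL5 read 6.98, 6.86 and 7.21 at 48 h, against 7.66, 7.89 and 7.87 at 24 h (change -0.79, SE 0.10, limma adjusted p = 6.03e-05). CXCL6 read 10.07, 10.27 and 10.29 at 48 h, against 10.69, 10.86 and 10.92 at 24 h (change -0.61, SE 0.10, limma adjusted p = 0.000659). Neither gene overlapped between the groups. CXCL1 changed by -0.68 (SE 0.13, limma adjusted p = 0.004) and CXCL2 by -0.65 (SE 0.12, limma adjusted p = 0.00308), CXCL2 at low levels of 6.07 to 6.11 on the 48 h arrays, against 6.44 to 7.17 on the 24 h arrays. CXCL8, which encodes interleukin 8 and was the brightest of the family, read 11.92, 11.99 and 12.35 at 48 h, against 12.27, 12.55 and 12.87 at 24 h (change -0.48, SE 0.12, limma adjusted p = 0.0376). Its highest 48 h array exceeded its lowest 24 h array.

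IL6, the cytokine interleukin 6, read 9.27, 9.46 and 9.43 at 48 h, against 9.96, 10.10 and 10.07 at 24 h (change -0.66, SE 0.10, limma adjusted p = 0.000292). IL24, a cytokine of the interleukin 10 family, read 7.17, 7.17 and 7.07 at 48 h, against 7.78, 7.84 and 7.76 at 24 h (change -0.66, SE 0.12, limma adjusted p = 0.00366). Both cytokines were lower on every 48 h array. The other called members were CCL20, a chemokine for CCR6-bearing cells (-0.35), and RELB, an NF-kB subunit (-0.31). CXCL8, CCL20 and RELB were named after their values were seen. Without 48 h replicate 1 the list held 5 lower members and CXCL1 had a limma adjusted p of 0.0568. The count was 6 without 24 h replicate 2 or 24 h replicate 3, and 1 with the spread shared by all 32 arrays.

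The promoters of CXCL1, CXCL5 and IL6 are shown because all 3 fell and all 3 hold the kB element near the start. The element was searched on both strands as GGNNTTTCC, and its letters are in capitals in the 250 bases before the start, 5′ to 3′, from RefSeq in GRCh38.p14.
CXCL1 (chr4:73869143-73869392, plus strand): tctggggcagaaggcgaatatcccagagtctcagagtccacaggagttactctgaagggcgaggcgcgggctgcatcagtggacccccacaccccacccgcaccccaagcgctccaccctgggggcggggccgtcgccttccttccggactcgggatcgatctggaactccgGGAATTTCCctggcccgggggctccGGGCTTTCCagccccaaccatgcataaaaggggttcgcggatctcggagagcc
CXCL5 (chr4:73998678-73998927, minus strand): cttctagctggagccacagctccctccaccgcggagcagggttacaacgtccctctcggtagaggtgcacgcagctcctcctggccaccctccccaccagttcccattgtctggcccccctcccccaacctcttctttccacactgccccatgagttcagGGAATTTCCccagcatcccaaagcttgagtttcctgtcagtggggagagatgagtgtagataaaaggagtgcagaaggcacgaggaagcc
IL6 (chr7:22726950-22727199, plus strand): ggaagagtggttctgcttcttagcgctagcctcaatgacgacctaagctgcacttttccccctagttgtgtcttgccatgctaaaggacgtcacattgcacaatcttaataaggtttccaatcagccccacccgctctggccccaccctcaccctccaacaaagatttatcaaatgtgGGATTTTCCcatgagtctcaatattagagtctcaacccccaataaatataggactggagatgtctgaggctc
The element begins at positions -78 and -53 in CXCL1, -90 in CXCL5 and -72 in IL6. It occurs in 7 of the 8 lower members with a RefSeq window, in 6 of the 14 members not called, and in 6.86% of all 8810 windows. IL24 was the lower member whose window did not hold these letters.

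Contractile and matrix genes fell in smaller number. In the YAP and SRF list of 21 genes, TAGLN and ACTG2 were lower, against 1.23% of all genes. TPM2 was higher, against 1.55%, and 18 did not pass. A negative sign was found in 18 of 21 (median -0.13), against 5329 of 10598 over all genes. ACTG2, the smooth muscle gamma-actin, read 7.85, 8.36 and 8.29 at 48 h, against 8.69, 9.15 and 8.99 at 24 h (change -0.78, SE 0.13, limma adjusted p = 0.00125). TPM2, a tropomyosin, changed by 0.37 (limma adjusted p = 0.0239, with a 2nd probe at 0.17), and THBS1, the matrix protein thrombospondin 1, by -0.53 (limma adjusted p = 0.0631). The ACTG2 promoter is shown because it holds the CArG box, the binding letters of SRF, in capitals, at positions -110 and -73.
ACTG2 (chr2:73892758-73893007, plus strand): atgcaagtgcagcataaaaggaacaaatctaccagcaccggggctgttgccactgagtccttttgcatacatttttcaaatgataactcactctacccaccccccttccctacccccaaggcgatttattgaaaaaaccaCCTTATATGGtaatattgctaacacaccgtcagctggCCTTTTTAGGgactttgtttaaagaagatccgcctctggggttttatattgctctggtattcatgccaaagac
TAGLN has no window in the table used, so ACTG2 is the only lower member examined. The box was found in it and in 4 of 14 members not called, against 1.11% of all windows.

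In the list of TGF-beta targets and matrix genes, 5 of 25 were lower (against 1.23% of all genes) and 2 higher (against 1.55%), with a median of -0.05. TGFBI, a matrix protein named for its induction by TGF-beta, read 9.33, 9.51 and 9.51 at 48 h, against 10.26, 10.11 and 10.17 at 24 h (change -0.73, SE 0.09, limma adjusted p = 3.29e-05). ID3, an inhibitor of basic helix-loop-helix factors, changed by -0.57, PMEPA1, a feedback inhibitor of TGF-beta signalling, by -0.52 (a 2nd probe by -0.32), the ligand gene TGFB2 by -0.48 and the collagen gene COL5A1 by -0.39, with limma adjusted p from 0.00292 to 0.0115 for these 4. The integrin subunit genes ITGB4 and ITGA2 were higher, by 0.51 and 0.48 (limma adjusted p = 0.0015 and 0.00457). TGFB2, COL5A1 and ITGA2 were named after their values were seen. The list therefore held calls in both directions.

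Growth lists held 1 or 2 calls each, against 1.55% higher and 1.23% lower over all genes. Over all 10598 genes 5269 had a positive and 5329 a negative sign. In the list of G1/S and DNA replication genes, 34 of 39 had a negative sign, the median was -0.18, and 2 were called lower. MCM10, which loads onto replication origins, changed by -0.46 (SE 0.09, limma adjusted p = 0.00354), and CDC25A, the phosphatase that activates CDK2, by -0.36 (limma adjusted p = 0.0198). E2F1 (-0.35, limma adjusted p = 0.051) and the licensing factor CDT1 (-0.51, limma adjusted p = 0.0546) fell short of the threshold. In 19 of the 39 every 48 h array was below every 24 h array, against 11.4% of all genes. In the ribosome biogenesis list, 26 of 27 had a negative sign, the median was -0.16, and RRS1 and BYSL, both factors of ribosomal subunit assembly, were lower (-0.33 each, limma adjusted p = 0.0209 and 0.0243). In 12 of the 27 every 48 h array was below every 24 h array, against 11.4% of all genes. In the G2/M list, 34 of 44 had a positive sign (median 0.10), 1 was called higher, near the share over all genes, namely the spindle factor DLGAP5 (0.31, limma adjusted p = 0.0363), and 0 lower. In 15 of the 44 every 48 h array was above every 24 h array, against 11.6% of all genes, and in 0 every one was below. Among inhibitors of the cell cycle and quiescence genes, 2 of 22 were higher, namely CDKN2B, the CDK4 inhibitor p15 (0.53, limma adjusted p = 0.00628), and the forkhead factor FOXO4 (0.43), and 0 were lower. All of these calls except MCM10 were lost without 48 h replicate 1, and all of them with median scaling of the arrays except CDKN2B, whereas the signs of the 4 list medians held under each scaling.

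Stress and nutrient lists gave scattered calls, against 1.55% higher and 1.23% lower over all genes. In the hypoxia and glycolysis list, 4 of 32 were higher and 1 lower, with 16 positive and 16 negative signs. NDRG1, a hypoxia-induced differentiation gene, changed by 0.72 (SE 0.14, limma adjusted p = 0.0039), DDIT4, an inhibitor of mTOR complex 1, by 0.69, the brain-type aldolase ALDOC by 0.49, and the neuronal enolase ENO2 by 0.36, while ADM changed by -0.61. All 4 higher calls of this list were lost without 48 h replicate 1. In the ATF4 and amino acid list of 28 genes, DDIT4, TRIB3, a pseudokinase (0.46), and PHGDH, the first enzyme of serine synthesis (0.38), were higher, and STC2 (-0.37) and the amino acid transporter subunit SLC3A2 (-0.39) lower. Without 48 h replicate 1 none of these 5 was called.

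In other lists 1 member each was called, a share not far from the 2.77% called over all genes, so the values describe the single gene and not its list. AKR1B10, an aldo-keto reductase, was the called gene among 21 NRF2 and glutathione genes, at 8.47, 8.37 and 8.57 on the 48 h arrays, against 7.71, 7.84 and 7.76 on the 24 h arrays (change 0.70, SE 0.09, limma adjusted p = 7.83e-05). The groups lay well apart for AKR1B10, while 12 of the 21 members had a negative sign. GDF15, a stress cytokine, was called among 19 p53-response genes (0.60, limma adjusted p = 0.0165), a call lost without 48 h replicate 1 or 24 h replicate 2. BHLHE40, a repressor of the clock, was called among 14 circadian genes (0.65, limma adjusted p = 0.00329). CYCS, the gene of cytochrome c, was the called gene among 28 of oxidative phosphorylation, at 8.42, 8.46 and 8.35 at 48 h, against 8.86, 9.08 and 9.06 at 24 h (change -0.59, SE 0.08, limma adjusted p = 0.00018). The median of that list was 0.00705, so CYCS stood apart from the respiratory chain genes listed with it.

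Interferon-stimulated genes were higher where called. Of 24 members, 5 were higher (against 1.55% of all genes) and 0 lower (median 0.10): IRF9, the DNA-binding subunit of the interferon-activated complex ISGF3 (0.48, limma adjusted p = 0.0078), IFIT1 (0.40), IFIT2 (0.38), IFIT3 (0.34) and the exonuclease gene ISG20 (0.42). IFIT2 read 9.62, 9.56 and 9.59 at 48 h, against 9.16, 9.25 and 9.23 at 24 h, with no overlap. The count was 1 without 48 h replicate 1 or 24 h replicate 3, 2 without 48 h replicate 3, 3 without 24 h replicate 2, and 0 with median scaling. Among 31 keratin and barrier genes, with the same 1.55% higher and 1.23% lower over all genes, KRT15 (0.74), KRT19 (0.49) and the desmocollin DSC2 (0.30) were higher, and TFF1 (-1.01), the hair keratin KRT34 (-0.44) and the claudin CLDN1 (-0.43) lower. KRT19, already at the 98.3rd percentile, read 12.60, 12.39 and 12.58 at 48 h, against 12.17, 11.84 and 12.11 at 24 h (limma adjusted p = 0.00444). KRT8 (0.09, limma adjusted p = 0.77), KRT18 (-0.06, limma adjusted p = 0.844) and KRT7 (-0.30, limma adjusted p = 0.809) did not pass, so the calls covered only some keratins.

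Among 19 immediate early and MAP kinase feedback genes, JUND (0.50), the phosphatase DUSP5 (0.41) and ETV5 (0.31) were higher, and HBEGF, a ligand of the EGF receptor (-0.39), and DUSP1 (-0.38) lower, with a median of 0.16, against 1.55% higher and 1.23% lower over all genes for this list and the next. In the lysosome and autophagy list ULK1 (0.29) was higher and GLA (-0.32) and CTSL (-0.33) lower, of 22 members. Without 48 h replicate 1 all of these calls were lost except ETV5, for which this was not computed. In 6 lists 0 members were called by limma: 21 heat shock genes, 19 clustered histone genes, 18 endoplasmic reticulum chaperones and XBP1 targets, 9 MHC class I genes, 8 metallothionein and zinc genes, and 4 targets of the glucose sensor MondoA. Their largest changes were 0.26, -0.27, 0.14, 0.16, -0.26 and 0.13 in that order, and TXNIP, the usual reporter of MondoA, changed by 0.01 (95% confidence interval -0.16 to 0.19).

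**Figure D3:**
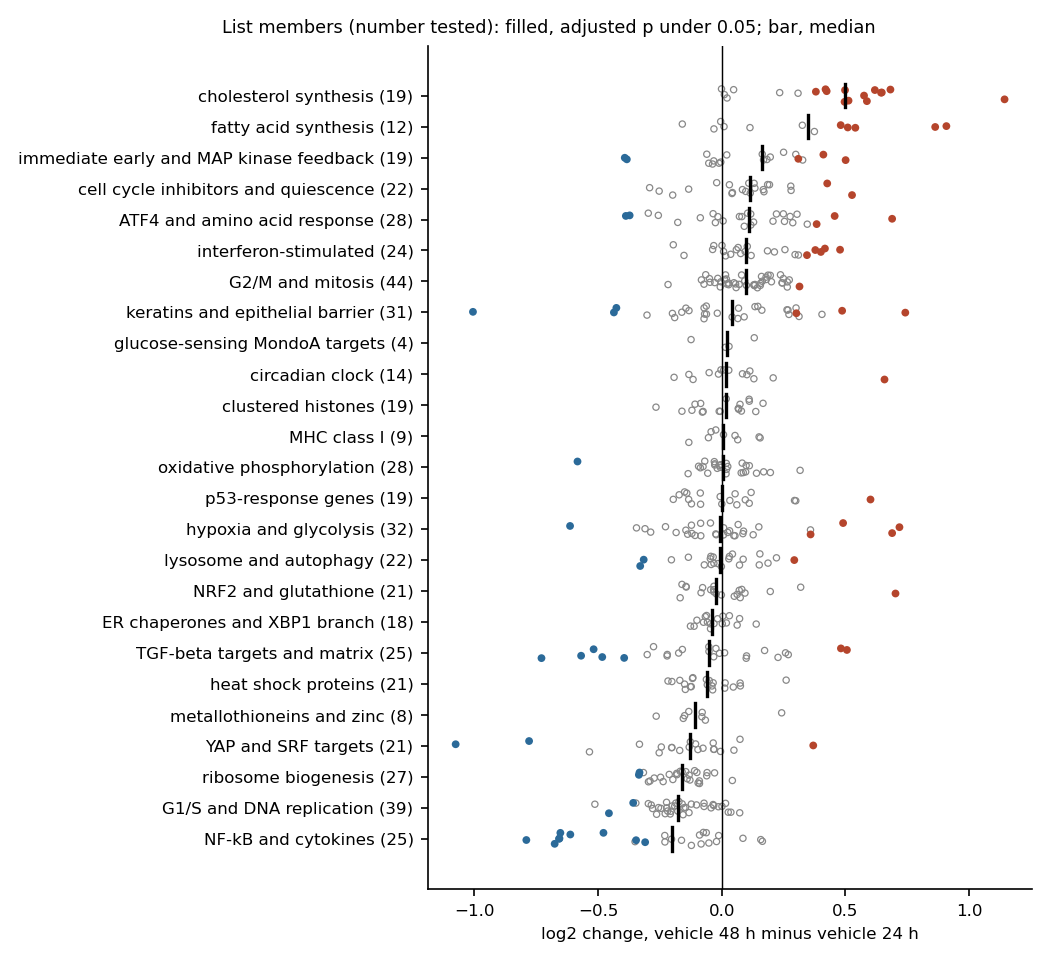
Change of every tested member (x axis, log2, vehicle 48 h minus vehicle 24 h) of 25 gene lists (rows, number of members tested in brackets), sorted by the list's median, which is drawn as a black bar. Filled points have a limma adjusted p under 0.05 (red higher, blue lower) and open points do not. The cholesterol list has the highest median (0.50) and the NF-kB and cytokine list the lowest (-0.20).

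The second interval was set beside the first, vehicle 24 h against 10 h, in which 134 genes (1.26%) changed, 53 higher (0.5%) and 81 lower (0.764%). The comparisons share the 24 h arrays, so their values are given side by side with the test of the difference. The first interval was the shorter, and changes were not scaled by duration. A gene that changed at a steady rate would therefore change more in the second. INSIG1 changed by 0.23 from 10 to 24 h and by 1.14 from 24 to 48 h, and SCD by -0.09 and 0.91. Both differences passed the test (0.92, SE 0.18, limma adjusted p = 0.0329, and 0.999, SE 0.17, limma adjusted p = 0.0201). In the cholesterol list the difference passed for 2 of 19 members, INSIG1 and ACAT2 (0.67, limma adjusted p = 0.047), and not for the others, such as MVD (0.69, limma adjusted p = 0.0765) and HMGCS1 (0.63, limma adjusted p = 0.0802). In the first interval 0 members of that list passed the test by limma, and its median was 0.02. CXCL5 changed by 0.06 and then -0.79 (difference -0.85, limma adjusted p = 0.0404). In all, 21 genes (0.198%) differed between the intervals, 13 of them (0.123%) with a higher change in the second and 8 (0.0755%) with a lower one.

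Other secreted factors fell in both intervals. IL6 changed by -1.09 and then -0.66, CXCL8 by -0.89 and -0.48, and CCL20 by -0.94 and -0.35. Of the 9 cytokine list members lower at 48 h, 7 were also lower at 24 h against 10 h. Among all genes 12 were lower and 5 higher in both intervals, with LXN (0.49 and 1.01), HAS3, KRT19, IFIT2 and the laminin gene LAMA5 as the 5 higher ones. Cell cycle genes were among those that differed between the intervals. The mitotic spindle gene ASPM changed by -0.64 and then 0.26, and SGO2, which guards centromeric cohesion, by -0.60 and 0.28 (differences 0.90 and 0.88, limma adjusted p = 0.0329 and 0.0258). The G2/M list held 13 lower members in the first interval (median -0.27). E2F2, a cell cycle transcription factor, changed by 0.74 and then -0.34, and CDCA7 by 0.56 and -0.25 (differences -1.08 and -0.81, limma adjusted p = 0.0196 and 0.0258). Without 48 h replicate 1, 24 h replicate 2 or 3, or 10 h replicate 2, 0 genes differed between the intervals by limma. Without 1 of the other arrays 3 to 23 did. Leaving out an array also lowers the power, so whether single arrays carry these differences was not tested.

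**Figure D4:**
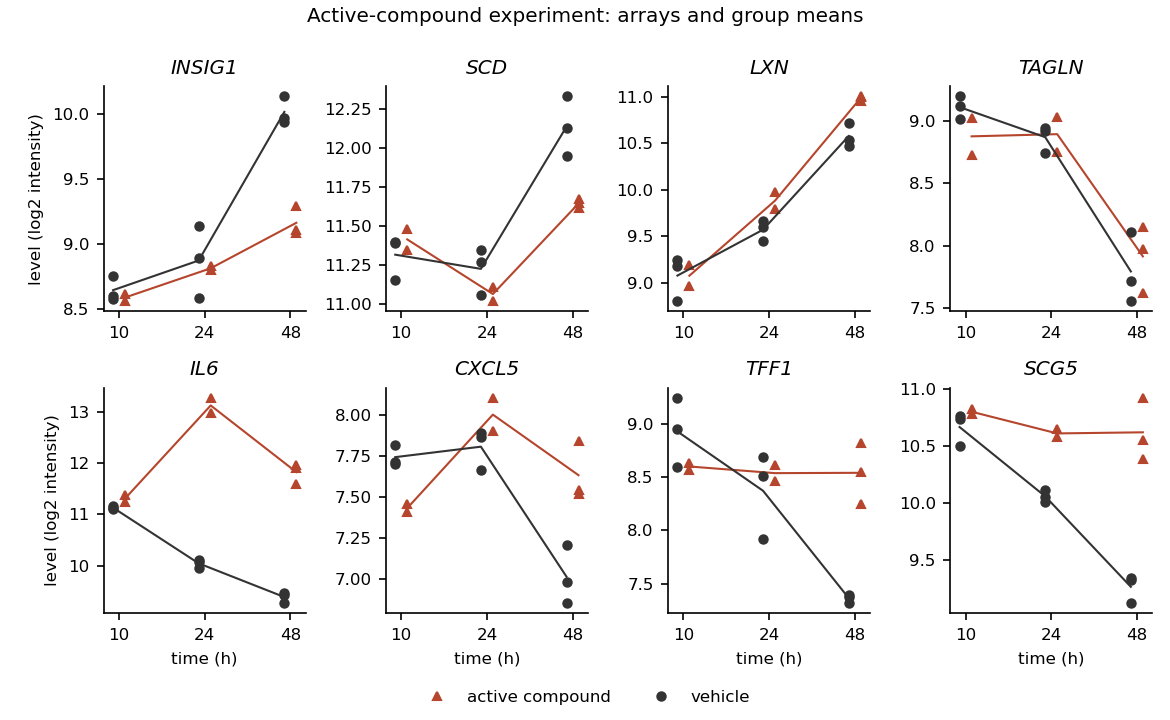
Levels (y axis, log2 intensity) of 8 genes over 10, 24 and 48 h (x axis) in the experiment with the active compound: red triangles are arrays of cells under the compound, black circles vehicle arrays, and lines join group means. In vehicle cells INSIG1 and SCD rise after 24 h, LXN rises and IL6 and SCG5 fall over both intervals, and under the compound TFF1 and SCG5 have near means at 24 and 48 h.

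Cells under the active compound went through the same hours in the same experiment, and their 48 h and 24 h arrays share none with the vehicle comparison. In them 631 genes (5.95%) changed, 386 higher (3.64%) and 245 lower (2.31%). Of the 164 genes higher in vehicle cells 157 had a positive sign under the compound, and of the 130 lower 115 had a negative sign, against 47.9% positive signs over all genes. Of these, 90 and 35 were also called. The median change under the compound was 0.37 for the 164 and -0.22 for the 130, against -0.01 over all genes, and over all genes the changes correlated at 0.50 (Pearson, across genes, which are not independent replicates). LXN (1.11 under the compound, 1.01 in vehicle cells), SCNN1A (0.88 and 0.95), TAGLN (-0.98 and -1.08), ACTG2 (-0.79 and -0.78) and SNAPC1 (-0.89 and -0.77) had near values in both arms. Over the cholesterol list 10 of 19 members were higher under the compound, with a median of 0.36, against 13 and 0.50 in vehicle cells.

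The time change differed between the arms for 40 genes (0.377%), with 29 (0.274%) higher and 11 (0.104%) lower under the compound, 9 of which were called in vehicle cells. INSIG1 changed by 0.35 under the compound and by 1.14 in vehicle cells (difference -0.79, SE 0.16, limma adjusted p = 0.0217). SCG5 changed by 0.01 under the compound and by -0.79 in vehicle cells (difference 0.80, SE 0.16, limma adjusted p = 0.0217). VASH2, a tubulin carboxypeptidase, changed by -0.42 under the compound and by 0.37 in vehicle cells (difference -0.79, limma adjusted p = 0.0142), and KRT34 by 0.36 and -0.44 (difference 0.80, limma adjusted p = 0.0144). TFF1 changed by 0.00 under the compound and by -1.01 in vehicle cells, but that difference missed the threshold (limma adjusted p = 0.0685). Genes whose vehicle change did not pass also differed, among them S100P, a calcium-binding protein (1.30 under the compound, -0.07 in vehicle cells), and the histone genes H2BC11 (1.10 and -0.27), H2BC5 (1.25 and 0.07) and H4C8 (1.29 and 0.11), with limma adjusted p of the difference from 7.85e-06 to 0.0013. With the spread shared by all 32 arrays 2 genes differed, RGS4 and H4C8, and leaving out single arrays gave 12 to 34.

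Vehicle cells of the separate experiment gave no call. Between 48 h (2 arrays) and 24 h (3 arrays) 0 genes passed the test there by limma and 206 had an unadjusted p under 0.05. Its residual SD was 0.220 log2 units, against 0.122 in the experiment with the active compound. In data simulated with each experiment's own spread, its fit recovered 3.2% of changes of 0.4 log2 units, against 76.2% in the main comparison. For changes of 0.8 the shares were 61% and 100%. The lack of calls in the separate experiment therefore cannot show that changes of 0.4 were absent. Simulated noise was drawn independently for each gene, so shifts that many genes share on an array were not part of it. The recovered shares thus need not hold for the real arrays. By sign, 40 of the 164 higher genes were positive in the separate experiment and 38 of the 130 lower genes were negative. The medians were -0.11 for the higher and 0.10 for the lower genes. Of the 19 members of the cholesterol list 5 were positive there and 14 negative, with a median of -0.12. Of the 12 members of the fatty acid list 2 were positive there and 10 negative, with a median of -0.14.

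The arrays of that experiment stood apart from one another at 24 h. INSIG1 read 9.65 and 9.18 at 48 h, against 9.39, 9.22 and 10.78 at 24 h, and 10.19, 11.15 and 9.89 at 10 h. TAGLN read 9.54 and 9.73 at 48 h, against 10.28, 9.59 and 8.33 at 24 h, and 8.73, 8.69 and 8.80 at 10 h. In both genes 24 h replicate 3 lay with or beyond the 10 h arrays rather than with the other 24 h arrays. Without that array 110 of the 164 higher genes were positive and 80 of the 130 lower genes negative, and the correlation of changes over all genes was 0.11, against -0.18 with it. Without 24 h replicate 1 the correlation was -0.37, with 13 of the 164 positive and 16 of the 130 negative. Without 24 h replicate 2 it was -0.23, with 31 and 32. By limma 0 genes were called in any of these. Replicate 3 was singled out after its values were seen. Under cyclophosphamide at 24 h, INSIG1 read 9.08, 9.37 and 10.55, and TAGLN 9.95, 9.41 and 7.51, so replicate 3 stood apart there too. The difference between the experiments passed the test for 1 gene (0.00944%), CXCL5 (-0.79 here and 0.40 there, difference -1.19, limma adjusted p = 0.0414), whose levels there were 6.49 and 6.05 at 48 h, against 5.97, 5.84 and 5.81 at 24 h. KLK3, removed as a dim probe, averaged 6.21 at 48 h and 6.13 at 24 h in the main comparison. CXCL5 was thus near the dim end of the range in the other experiment, which limits what its change there can show. The CXCL5 call was lost without any 1 of the 5 arrays of the other experiment. For INSIG1 the change there was -0.39 with a 95% confidence interval of -1.42 to 0.65, and the difference did not pass (1.53, SE 0.45, limma adjusted p = 0.514).

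**Figure D5:**
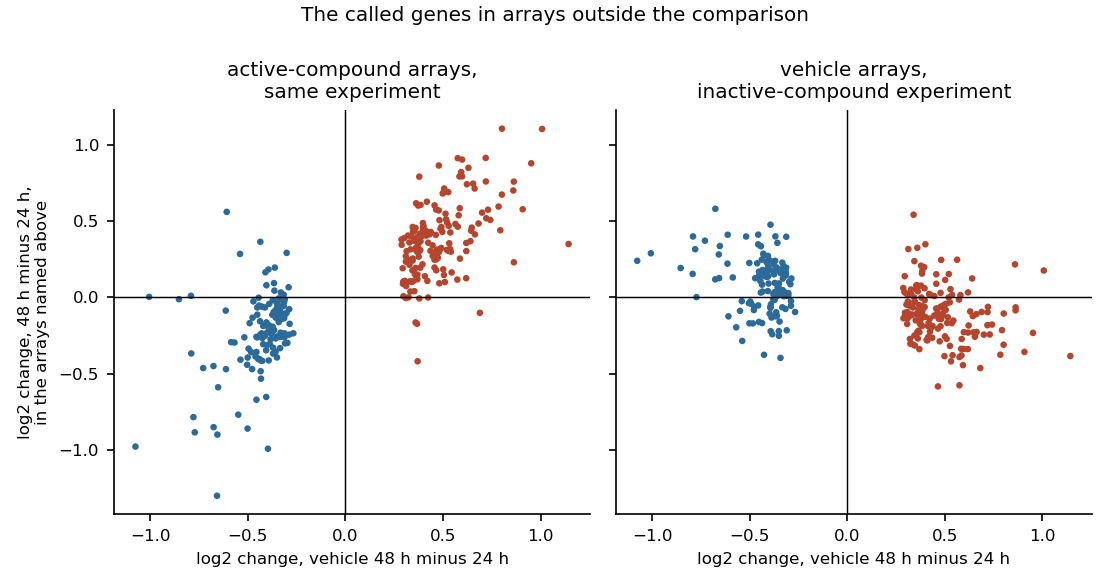
The 294 called genes by their change in vehicle cells (x axis, log2, 48 h minus 24 h, red higher and blue lower) and their change in other arrays (y axes, log2, 48 h minus 24 h): cells under the active compound in the same experiment (left) and vehicle cells of the experiment with the inactive compound (right). On the left 157 of 164 higher and 115 of 130 lower genes have the same sign, and on the right 40 of 164 and 38 of 130 do.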

How the data were processed

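RNA of PC-3 cells was measured on 32 single-colour Illumina arrays of 20589 probes, 6 of them in the comparison described. The authors deposited a table of probe intensity, and separately a table of their own log2 values; BeadStudio and R 2.12.0 are named per the submitters' processing notes, and no source used here names a genome build. Background was corrected by normexp with an offset of 50, all 32 arrays were quantile-normalized together, and log2 was taken. The upper 60% of probes by mean level was kept, with the brightest probe per gene, which left 10598 genes. Of 20589 probes 18332 had 1 gene symbol in the platform annotation. No detection p-values were used.

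Group means of the 16 arrays of the experiment with the active compound were fitted with limma 3.58.1 in R 4.3.3, and p-values were adjusted over all genes (Benjamini-Hochberg, 0.05). The fit was tested on simulated data. Text names the 15 largest called changes each way, up to 4 members of each list by smallest p, and up to 5 genes each way for differences between comparisons. Other genes were named after their values were seen. The groups, members and gene lists were chosen with earlier results of these data known. Same-numbered arrays were not treated as pairs, since not all correlations of their deviations passed 0.1 (0.160, 0.0688 and 0.2225). All of these nonetheless exceeded the values for differently numbered arrays, which ran from -0.2136 to 0.04723. With the title-letter run as a block, 520 genes were called rather than 294, so the choice affects the count. Alternatives covered spread, normalization, background, filter, the authors' values, a block and single arrays left out.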

Additional observations from a re-analysis of the deposited data

Results flagged for a closer look

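Over all genes the change differed by a limma interaction test for 21 genes between intervals, 40 between arms and 1 between experiments. Values are given for the 27 cases among the genes named by rule.

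Between the intervals (24 to 48 h minus 10 to 24 h, vehicle cells, not scaled by duration), the difference was 0.999 for SCD, 0.92 for INSIG1, 0.67 for ACAT2, 1.04 for MGP, 0.76 for TOP2A, 0.90 for ASPM and 0.88 for SGO2. It was -0.85 for CXCL5, -0.98 for H2BC11, -1.08 for E2F2, -0.81 for CDCA7 and -0.81 for GALNT18, with limma adjusted p from 0.0196 to 0.047 over these 12 genes.

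Between the arms (48 minus 24 h, active compound minus vehicle), the difference was 1.36 for H2BC11, 1.04 for H2AC6, 1.17 for H2BC21, 1.18 for H2BC5 and 1.18 for H4C8, all histone genes. It was 1.37 for S100P, 1.19 for RGS4, 0.80 for SCG5 and 0.80 for KRT34, and -0.79 for INSIG1, -0.79 for VASH2, -0.74 for FST, -0.70 for AQP7 and -0.66 for CBLN1, with limma adjusted p from 7.85e-06 to 0.0439.

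Between the experiments (vehicle 48 minus 24 h, active minus inactive), the difference was -1.19 for CXCL5 (limma adjusted p = 0.0414). Its levels were near the dim end of the range in the inactive experiment.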

How the results depend on the processing

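Counts are genes called by limma at an adjusted p under 0.05, and the causes of their changes were not tested. For vehicle 48 against 24 h the count of 294 (164 higher, 130 lower) became 1 (0 and 1) with the spread shared by all 32 arrays, 96 (59 and 37) with median scaling, 160 (95 and 65) with no filter on dim probes and 520 (275 and 245) with the title-letter run as a replicate block. Leaving out 1 array gave 84 to 268 (49 to 162 higher, 35 to 106 lower). No call named in the text changed direction where it was recomputed, which was not done for ETV5 without 48 h replicate 1. Alternatives that changed only the spread estimate kept the same group means, so they could not change a direction.

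The 21 differences between intervals became 0 with the shared spread, 9 with quantile normalization within each experiment, 1 with median scaling, 34 with no background correction, 8 with offset 16, 0 with no filter and 44 with the replicate block, and 0 to 23 with 1 array left out. The 40 differences between arms became 2 with the shared spread, 15 with median scaling, 25 with offset 16, 21 with no filter and 74 with the replicate block, and 12 to 34 with 1 array left out. The 1 difference between experiments became 2 with median scaling, 2 with the authors' log2 values, 0 with no background correction and 0 with offset 16, and 0 to 1 with 1 array left out. In the inactive experiment the count was 0 under every alternative run.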

Other observations

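These genes lie outside the lists and were chosen after their values were seen. Higher at 48 h were the forkhead factor FOXA1 (change 0.31, limma adjusted p = 0.018), the ETS factor EHF (0.37, limma adjusted p = 0.045) and the secretory protein gene AGR2 (0.58, limma adjusted p = 0.00141). The mesenchymal repressor SNAI2 (-0.45, limma adjusted p = 0.0203) and N-cadherin, CDH2 (-0.39, limma adjusted p = 0.0157), were lower. In the epithelial marker list 1 of 5 tested members was called higher (KRT19), 3 of the 5 had a negative sign, and the median was -0.06. No list of mesenchymal genes was examined, so the values describe single genes and not a shift of cell type. EHF, FOXA1, SNAI2 and CDH2 were not called without 48 h replicate 1.

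The lysosomal cholesterol genes NPC1, an exporter (0.46, limma adjusted p = 0.00145), and LIPA, an acid lipase (0.49, limma adjusted p = 0.000683), were higher. The cytidine deaminase gene APOBEC3G was higher by 0.62 (limma adjusted p = 0.000659).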
